A study of Mus musculus with 6 samples.

Results

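A set of 10 imprinted genes whose maternal copy is normally methylated at the promoter was followed through the loss of Uhrf1 in the embryonic cortex. The genes were Peg10, Sgce, Mest, Peg3, Snrpn, Kcnq1ot1, Plagl1, Grb10, Nnat and Impact. They were taken by name, and the rule uses no measured value, although the set was drawn up with earlier results of these data known. Their cytosines were those within 3000 bp of the 5' end of the gene, in GRCm38 with GENCODE M21, that had at least 6 reads in every library. This rule gave 170 of the 646645 CpG cytosines covered in all 6 libraries, at 8 of the 10 genes. The question was whether the intermediate methylation of these promoters was kept or halved in the knockout, locus by locus.

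The libraries came from whole cortex of C57BL/6 mouse embryos at embryonic day 16. The 3 control libraries were labelled Uhrf1 +/- and the 3 conditional knockout (cKO) libraries Uhrf1 -/-. In the study's methods, Emx1-Cre, carried by the controls as well, deleted a floxed Uhrf1 exon in the dorsal telencephalon, so that cortical cells of other origin (interneurons, vessels, microglia) kept the gene. Loss in every cell and loss in some of the cells cannot be told apart in whole cortex. Ox-RRBS, reduced representation bisulfite sequencing after an oxidation step, was the assay, in which MspI cuts at CCGG, 5-hydroxymethylcytosine is oxidised so that it is no longer read as methylated, and the percent of reads with C at a CpG gives 5-methylcytosine. Coverage summed over listed cytosines came to 18238737 to 31019082 a library, with a median of 13 to 17 reads a cytosine. In this sum a read that spans several CpGs counts at each of them. One control stood apart. The library labelled control replicate 1 averaged 15.6% over all covered cytosines, against 38.9% and 39.4% in the other controls and 15.8% to 19.6% in cKO. No cKO library had a level near that of the other controls, and whether the label of this library is right was not tested. If it is not, the control means and the tests of 6 libraries mix genotypes. The library was kept as a control in every test of 6 libraries, and the fits are also given without it. Shares of the control level left in cKO are given only without it. Against all 3 controls they would be 85.0% instead of 65.1% at Snrpn and 105.7% instead of 78.2% at Peg3. At the 8 cytosines near the internal Grb10 start the share would be 80.4% instead of 83.3%. Leaving it out removes a control for its level of methylation, which is the outcome measured. The 5' end of Uhrf1, outside the deleted exon, was at 3.41%, 14.3% and 9.58% in controls and 5.44%, 5.30% and 3.56% in cKO replicates, which checks nothing about the deletion.

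At an imprinted gene a single parental copy is expressed. For these genes a mark is laid down in the oocyte, so that the maternal promoter is methylated and the paternal promoter is active. The mark is then copied at each cell division by Dnmt1, which Uhrf1 guides to newly replicated DNA, and in the early embryo it is shielded by zinc finger proteins such as Zfp57, which binds the methylated hexamer TGCCGC. A mixture of both copies therefore reads at an intermediate level, unlike most CpGs outside islands, which are methylated on both copies.

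The gene record in the annotation often starts at a far upstream or alternative transcript. No cytosine was listed in any library within 3000 bp of the gene 5' end of Mest (chr6, position 30723547) or Snrpn (chr7, position 60140219). Only 2 were covered at Peg3 and 2 at Impact. At Plagl1 and Grb10 the gene 5' end lay at an unmethylated start. When the 5' end of any annotated transcript was allowed, 267 cytosines at all 10 genes were covered, in 24 stretches separated by more than 200 bp. The division into stretches was made after the data were seen. The sequences below are parts of the main stretches that lie outside UTRs, on the strand of the gene, with each covered CpG in capitals. The first 3 are those with levels in cKO nearest to the controls, the next 2 had intermediate levels that were lower in cKO than in control replicates 2 and 3, and the last lies in the body of Mest, away from the promoter, and was highly methylated in these controls.
Kcnq1ot1 at chr7:143295464-143295623, minus strand: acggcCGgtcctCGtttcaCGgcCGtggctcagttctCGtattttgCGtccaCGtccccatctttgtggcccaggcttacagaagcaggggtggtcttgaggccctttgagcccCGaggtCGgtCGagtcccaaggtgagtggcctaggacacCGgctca
Grb10 at chr11:12025623-12025837, minus strand: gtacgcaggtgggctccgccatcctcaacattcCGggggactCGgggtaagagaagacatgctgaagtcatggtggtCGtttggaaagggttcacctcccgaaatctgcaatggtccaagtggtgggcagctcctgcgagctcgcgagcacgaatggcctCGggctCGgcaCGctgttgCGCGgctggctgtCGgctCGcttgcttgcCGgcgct
Plagl1 at chr10:13090618-13090787, plus strand: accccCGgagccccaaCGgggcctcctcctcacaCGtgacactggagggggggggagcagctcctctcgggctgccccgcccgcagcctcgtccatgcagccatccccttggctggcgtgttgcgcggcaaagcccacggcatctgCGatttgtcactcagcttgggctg
Snrpn at chr7:60004848-60005035, minus strand: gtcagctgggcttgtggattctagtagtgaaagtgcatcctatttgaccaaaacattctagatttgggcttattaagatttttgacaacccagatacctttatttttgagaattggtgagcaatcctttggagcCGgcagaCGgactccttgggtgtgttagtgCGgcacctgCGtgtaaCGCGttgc
Mest intron at chr6:30735289-30735514, plus strand: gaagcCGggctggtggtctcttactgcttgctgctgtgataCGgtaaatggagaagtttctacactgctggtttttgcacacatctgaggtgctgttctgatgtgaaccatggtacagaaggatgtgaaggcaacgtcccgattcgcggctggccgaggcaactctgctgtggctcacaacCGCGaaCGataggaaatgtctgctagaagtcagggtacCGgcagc
Mest gene body at chr6:30742859-30743042, plus strand: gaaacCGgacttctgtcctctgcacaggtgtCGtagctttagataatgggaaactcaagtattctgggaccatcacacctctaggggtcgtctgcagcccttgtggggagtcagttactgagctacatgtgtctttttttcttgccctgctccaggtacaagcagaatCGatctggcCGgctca

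With all 6 libraries, none of the members was called. The test was a moderated quasi-binomial F test on summed reads over 17879 gene 5' ends with at least 3 covered cytosines, with a call requiring q under 0.01 together with 25 points between group means. It called 0 of the 6 members that could be tested and 0 of all 5' ends (0.0%) in either direction. At an unadjusted p under 0.05 there were 1603 of 17879 5' ends and 0 of the 6 members, and limma on percent levels also called 0 (940 at that unadjusted p). Without the library labelled control replicate 1, Peg10 and Sgce, which share their cytosines, were lower in cKO, 2 of 6 members beside 13.3% of all 5' ends. Of the 6, Plagl1 (5.11% in control replicates 2 and 3) and Grb10 (2.54%) could not be called lower. Among 5' ends at 30% to 70% in these controls, 41.1% were called lower in this fit. Kcnq1ot1 and Nnat lay in that band and were not called, and Peg10 and Sgce lay above it. With any transcript 5' end and without that library, 4 of 9 members were lower (Peg10, Sgce, Mest and Impact), beside 18.9% of 19073 genes. Here too Plagl1 (23.5% in control replicates 2 and 3) and Grb10 (12.4%) could not be called lower. No member was called higher in any of these fits.

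Peg10, a retrotransposon-derived gene needed in the placenta, and Sgce, encoding epsilon-sarcoglycan, are transcribed away from each other from neighbouring starts at chr6 positions 4747306 and 4747207. Their 12 covered cytosines (chr6:4747355-4747490) lay in the first exon of Peg10. They read 40.4%, 79.7% and 73.3% in controls 1, 2 and 3 and 49.1%, 37.1% and 44.9% in cKO libraries 1, 2 and 3. Values are given in this order throughout. Control replicates 2 and 3 were thus above the intermediate level and every cKO library was below both, while the library labelled control replicate 1 lay among the cKO libraries. Controls averaged 64.5% ± 21.1 (SD, n = 3) and cKO libraries 43.7% ± 6.09 (SD, n = 3), a difference of -20.8 points that was within the spread of the controls (q = 0.592 in the quasi-binomial test). The difference was -13.2 points without control replicate 2 and -16.4 points without control replicate 3. Without the library labelled control replicate 1 it was -32.8 points (q = 0.00224), and 57.1% of the level of control replicates 2 and 3 was left in cKO (the share left), from 46.5% to 67.0% between the most distant libraries. These levels rest on 50 to 93 reads a library, each stack of reads counted once, and the 95% Wilson interval ran from 68.3% to 87.7% in control replicate 2 and from 28.1% to 48.3% in cKO replicate 2. Such intervals cover counting error only. The strands were uneven in control replicate 2, with a mean of 25.7% over 5 cytosines on the plus strand (median 7 reads) and 89.1% over 7 on the minus strand (median 29 reads). The cKO libraries were at 34.4%, 43.0% and 37.8% on the plus strand, all above control replicate 2 there and below control replicate 3 (75.4%), and at 58.7%, 30.7% and 51.4% on the minus strand, below both.

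Kcnq1ot1, the long non-coding RNA that silences its neighbours on the paternal copy, had 12 covered cytosines near its start at chr7 position 143296549. In the 11 within the transcript (chr7:143295469-143295618) the level was 25.4%, 39.2% and 24.6% across the 3 controls and 35.3%, 26.5% and 29.6% across the 3 cKO libraries. The groups overlapped, and in no cytosine were all cKO libraries below both control replicates 2 and 3. The share of all covered cytosines meeting this was not counted. This count and the same counts at other loci are therefore a description. The share left was 95.5%, with a range of 67.6% to 143.6%. The remaining cytosine lay 2937 bp upstream and read 100% in control replicates 2 and 3, 41.2% in the library labelled control replicate 1 and 42.9%, 17.9% and 21.4% in cKO replicates, on 10 to 28 reads. Here 27.4% was left and every cKO library was below control replicates 2 and 3, unlike the stretch inside the transcript. Over the whole window the means were 31.8% in controls and 30.3% in cKO (q = 0.98), and leaving out the library labelled control replicate 1 gave -4.29 points (q = 0.784).

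Grb10, an adaptor that restrains insulin and growth factor signalling, is expressed from the maternal copy in most tissues and from the paternal copy in neurons, where transcripts start at an internal promoter. Its gene 5' end (chr11, position 12038683) held 91 cytosines at 1.54%, 2.91% and 2.16% in controls and 1.70%, 1.44% and 1.81% in cKO replicates, so both groups were nearly unmethylated there. At the internal start, 20 cytosines (chr11:12025628-12026186) were at 32.9%, 49.4% and 36.4% in control replicates 1, 2 and 3 and at 40.9%, 50.3% and 37.3% in cKO replicates. Each cKO library lay within or above the range of the controls, the share left was 99.8% (75.5% to 138.2%), and all cKO libraries were below both control replicates 2 and 3 in 0 of 20 cytosines. A second group of 8 cytosines further upstream (chr11:12026722-12026797) was at 53.8%, 58.1% and 38.7% in controls and 32.1%, 44.0% and 44.9% in cKO replicates, also with overlap between the groups. In contrast to both, 2 cytosines 2151 bp upstream of the gene 5' end were at 86.7% and 81.0% in control replicates 2 and 3, 20.8% in the library labelled control replicate 1 and 30.2%, 27.7% and 20.7% in cKO replicates, leaving 31.2%.

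Plagl1, a zinc finger regulator of other imprinted genes, showed the same division between starts. At its gene 5' end (chr10, position 13060504) 15 cytosines were at 1.92%, 1.69% and 8.54% in controls and at 3.01%, 2.38% and 1.72% in cKO replicates. Around an internal start (chr10:13090623-13090981), 20 cytosines were at 38.5%, 33.0% and 45.8% in control replicates 1, 2 and 3 and at 29.8%, 41.3% and 43.3% in cKO replicates. The groups overlapped and 96.8% was left (65.1% to 131.2%). That value averages unlike cytosines, since the cKO mean ranged from 13.8% to 75.2% across the 20 cytosines while the mean of control replicates 2 and 3 ranged from 27.2% to 54.5%. All cKO libraries were below both of these controls in 5 of the 20. Strand and depth also mattered here. The CpG at chr10:13090934-13090935, covered on both strands, left 154.0% on the plus strand and 25.4% on the minus strand. Control replicate 2 had only 6 and 7 reads there.

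Nnat, encoding the neuronal membrane proteolipid neuronatin, lies within an intron of Blcap and was the member with most covered cytosines at an intermediate level (36 in all, start at chr2 position 157560078). Over its window it was at 29.9%, 48.0% and 57.5% in control replicates 1, 2 and 3 and at 39.8%, 36.5% and 34.1% in cKO replicates. All cKO libraries were below control replicates 2 and 3 and above the library labelled control replicate 1. The difference was -8.37 points (q = 0.632), and -15.99 points when that library was left out (q = 0.00732), short of the 25 points required. It shrank to -2.18 points without control replicate 3. Within the gene, the stretch from 20 to 400 bp (16 cytosines) left 70.5% and that from 1366 to 1700 bp (12 cytosines) left 77.2%. The stretches 2196 and 1822 bp upstream, in an exon of Blcap, left 62.1% and 54.2%. In the stretch from 20 to 400 bp, the cKO libraries were close to each other at 34.8%, 34.1% and 34.4%, against 39.6% and 58.0% in control replicates 2 and 3, which differed more from each other than the lower of them did from cKO.

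Snrpn, encoding a splicing protein from the Prader-Willi locus, was covered only at the promoter it shares with Snurf (chr7:60004853-60005229). The 12 cytosines were at 15.96%, 54.3% and 53.1% in control replicates 1, 2 and 3 and at 29.9%, 43.3% and 31.6% in cKO replicates. Control replicates 2 and 3 were nearly equal and every cKO library lay below them, but the library labelled control replicate 1 was the lowest of all. The difference was -6.16 points (q = 0.764), and -18.7 points when it was left out (q = 0.0243), not called in either fit. The share left was 65.1% (55.1% to 81.6%).

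Impact, an inhibitor of the amino acid starvation kinase Gcn2, had 2 cytosines at its gene 5' end (chr18, position 12955852), which read 0% to 20% on 10 to 29 reads. In an intron, 1079 to 792 bp upstream of an internal transcript start, 16 cytosines were at 29.4%, 41.3% and 49.2% in control replicates 1, 2 and 3 and at 33.2%, 34.0% and 28.3% in cKO replicates. All cKO libraries were below control replicates 2 and 3, and 70.4% was left (57.5% to 82.4%). A further 6 cytosines, 238 bp inside another transcript, were at 57.2%, 91.8% and 92.5% in controls and at 41.5%, 37.9% and 27.3% in cKO replicates. Here even the library labelled control replicate 1 was above every cKO library, and 38.6% was left. The call of Impact with any transcript 5' end and without that library (-31.3 points, q = 0.0004) summed reads of all these cytosines.

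Mest, a hydrolase-like gene expressed from the paternal copy in mesoderm and brain, had no covered cytosine at its gene 5' end and 14 near other transcript starts. In an intron (chr6:30735294-30735509) 6 cytosines were at 41.9%, 58.5% and 71.0% in control replicates 1, 2 and 3 and at 28.9%, 41.8% and 29.7% in cKO replicates. Every cKO library was below every control, the library labelled control replicate 1 by a small margin, and 51.7% was left. The covered stretch nearest to a transcript start was 4 cytosines in an exon (chr6:30738332-30738376), 277 to 321 bp from it. There the libraries scattered within both groups, with 15.9%, 70.1% and 14.3% in controls and 50.5%, 38.3% and 15.7% in cKO replicates on 14 to 84 reads. The share left of 82.6% spans 22.4% to 353.4%, so whether the level next to this start was kept or halved cannot be read. In the gene body (chr6:30742864-30743037) 4 cytosines were at 30.5%, 87.8% and 81.7% in controls and at 31.5%, 30.5% and 29.4% in cKO replicates, leaving 35.9%. The sum over these places was lower in cKO without the library labelled control replicate 1 (-39.2 points, q = 0.000344) and not called with it (-26.2 points, q = 0.356).

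Peg3, a zinc finger gene of maternal behaviour and growth, was covered at 2 cytosines only (chr7:6730206-6730247), in the intron after its start. They were at 8%, 37.0% and 36.1% in control replicates 1, 2 and 3 and at 26.7%, 21.9% and 37.2% in cKO replicates. The groups overlapped, and the share left was 78.2%, with a range of 59.2% to 103.0%, on 36 to 96 reads a library. The gene was below the minimum of 3 cytosines and was not tested.

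**Figure D1:**
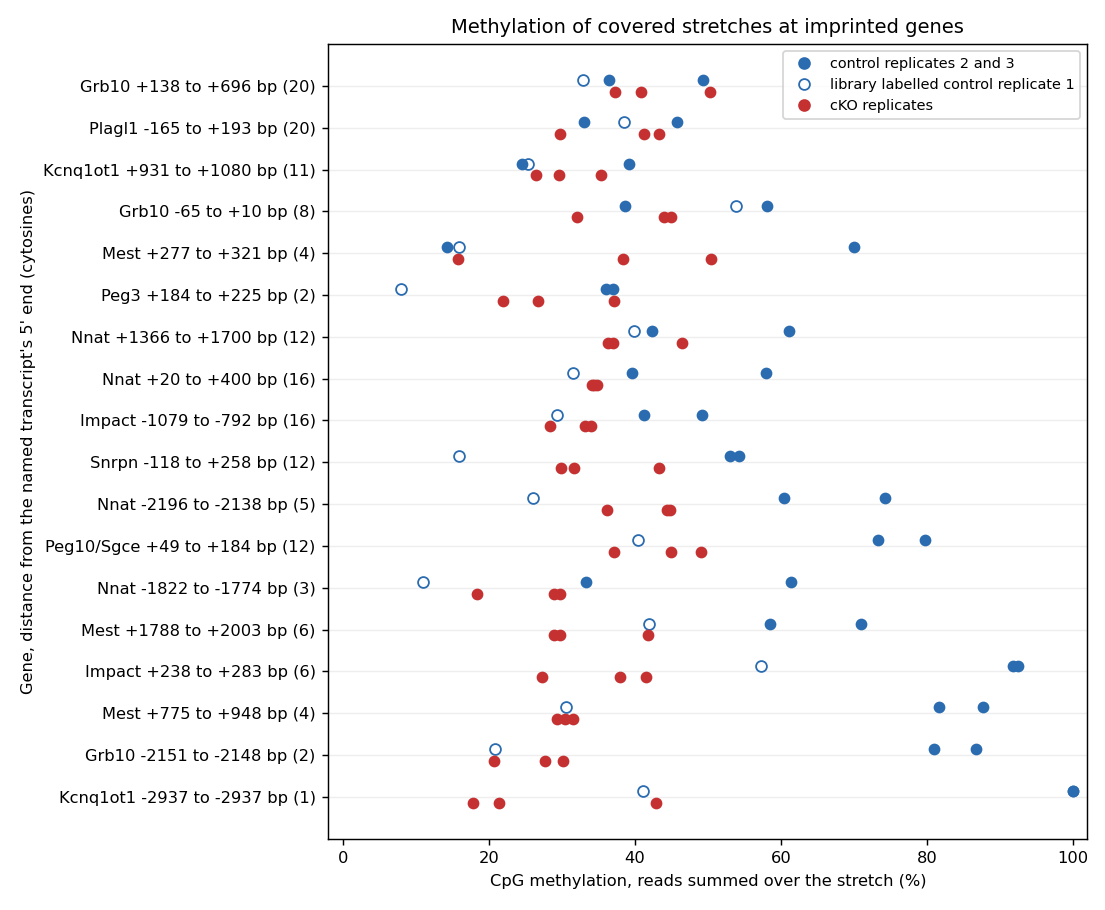
Methylation in percent (horizontal axis) of the 18 covered stretches of the members with a mean of at least 30% in control replicates 2 and 3 (vertical axis: gene, distance from the transcript start and number of cytosines), sorted by the share left in cKO. Each point is 1 library, filled blue for control replicates 2 and 3, open blue for the library labelled control replicate 1 and red for cKO. At the Grb10, Plagl1 and Kcnq1ot1 stretches on top the groups overlap, and at the 4 lowest stretches the cKO libraries lie between 17.9% and 42.9% while control replicates 2 and 3 lie at 81.0% or more.

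Read together by control level, the stretches fell into bands. Of the 24 stretches, 13 had a mean of 30% to 70% in control replicates 2 and 3, 5 had more and 6 had less. In the intermediate band the median share left was 77.2%, from 51.7% in the Mest intron to 99.8% at Grb10, and all cKO libraries were below both of these controls in 6 of 13 stretches, beside 93.2% of gene 5' ends in the same band. In the high band the median share left was 35.9%, from 27.4% to 57.1%, and all cKO libraries were below in 5 of 5, beside 99.2% of 2004 gene 5' ends, whose median share left was 40.96%. A stretch is shorter than the 3000 bp window, so the counts of stretches and of 5' ends are not matched in reads. With the library labelled control replicate 1 among the controls, all cKO libraries were below every control in 1 of 13 and 1 of 5 stretches. The share of gene 5' ends was not counted for this comparison. That library was at the level of cKO over all covered cytosines, and whether these low counts are particular to the members was not tested. The cKO means of the 2 bands were much alike, 25.7% to 42.8% in the intermediate and 26.2% to 43.7% in the high band. The stretches were banded by control replicates 2 and 3, which also enter the share, so these values are a description.

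Among all gene 5' ends, 1794 had a mean of 30% to 70% in control replicates 2 and 3. Their median share left was 41.5%, with quartiles at 35.9% and 49.4%, and 41.1% were called lower in the fit without the library labelled control replicate 1. The share at the gene 5' end of Kcnq1ot1 (87.6%) was reached by 1.06% of these 5' ends and that of Nnat (69.7%) by 4.4%. Peg10 and Sgce lay above the band with 76.5% in these controls, and their share of 57.1% was reached by 10.7% of the 2004 gene 5' ends over 70%. The gene 5' ends of Plagl1 and Grb10 lay below the band, and the other 4 members had too few cytosines there.

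**Figure D2:**
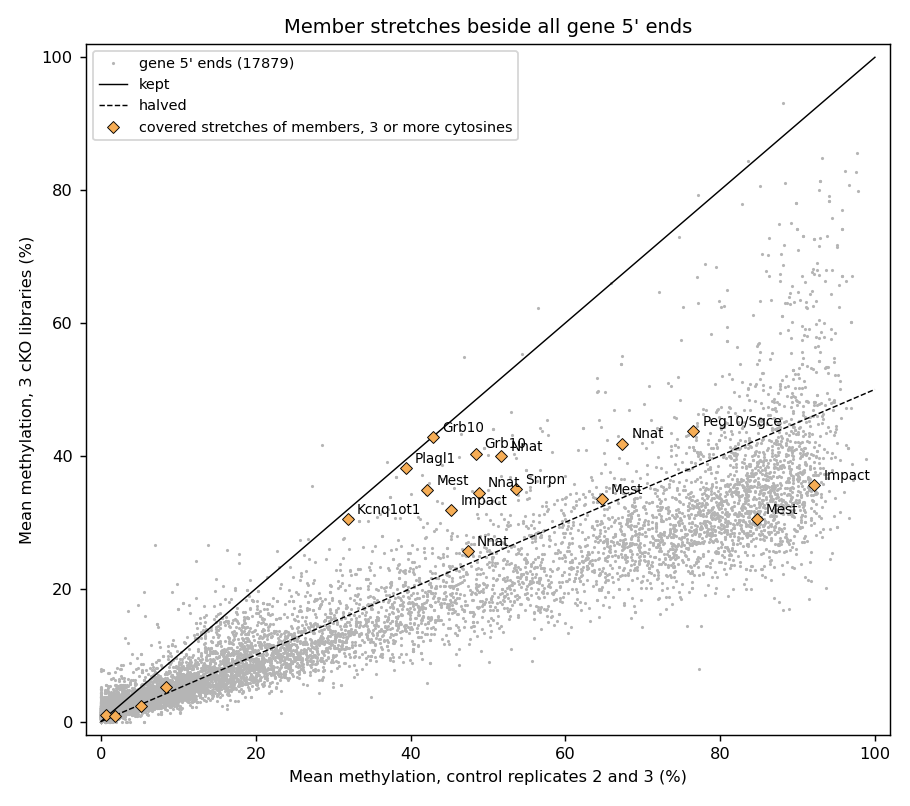
Mean methylation in percent of the 3 cKO libraries (vertical axis) against that of control replicates 2 and 3 (horizontal axis). Grey points are the 17879 gene 5' ends, diamonds the covered stretches of the members with 3 or more cytosines, the solid line an equal level and the dashed line a halved one. The Kcnq1ot1 stretch and the internal stretches of 20 cytosines of Grb10 and Plagl1 lie at or just below the solid line, the other intermediate Grb10 stretch lies below it with 83.3% left, the Mest intron near the dashed line, and the Mest gene body and the inner Impact stretch below it among the other 5' ends.

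The comparison was repeated on single cytosines, in libraries that took no part in choosing them. Cytosines at 30% to 70% in control replicate 2 were chosen, 94 at the members and 77434 elsewhere, and read in the other 5 libraries. The members were at 46.0% in control replicate 3, 31.1% in the library labelled control replicate 1 and 34.4%, 36.6% and 33.7% in cKO replicates 1, 2 and 3. The other cytosines were at 57.3%, 20.8%, 28.0%, 26.3% and 21.2% in the same libraries. In the 4 libraries with low methylation the members were therefore above the other cytosines, by a ratio of 1.498 in the library labelled control replicate 1 and 1.23, 1.40 and 1.59 in cKO, and in control replicate 3 they were below (0.804). Between groups, the ratio differed by less than its spread among the controls (exact permutation test, two-sided, p = 0.6, n = 2 and 3). All 3 cKO libraries were below control replicate 3 at 48 of the 94 member cytosines (51.1%), beside 80.2% of all 77528 such cytosines. Cytosines of 1 MspI fragment share reads and are not independent.

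**Figure D3:**
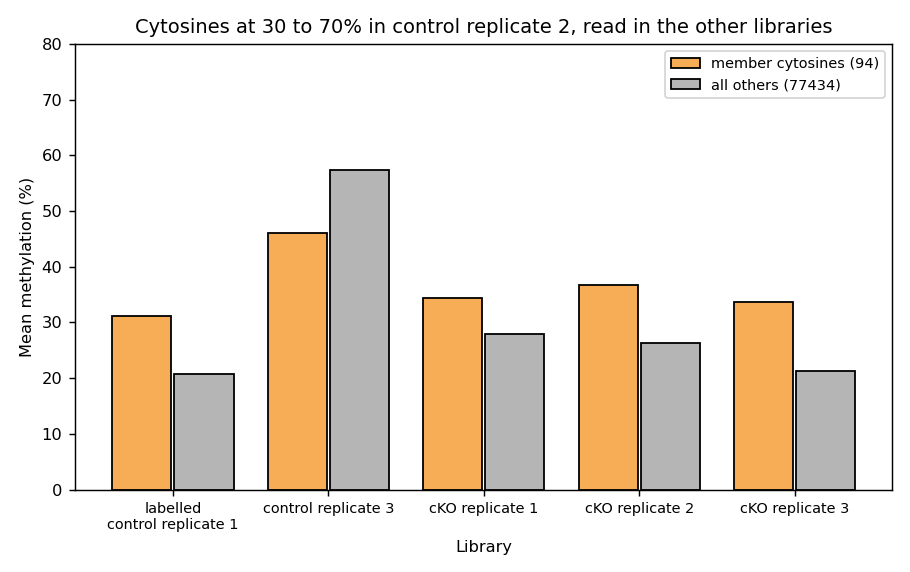
Mean methylation in percent (vertical axis) of cytosines at 30% to 70% in control replicate 2, in each of the other 5 libraries (horizontal axis). Orange bars are the 94 member cytosines and grey bars the 77434 others. The members are the higher bar in the 4 libraries with low methylation and the lower bar in control replicate 3.

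By gene, the share of control replicate 3 left in cKO at these cytosines was 125.2% at Kcnq1ot1 (11 cytosines), 114.1% at Grb10 (18) and 77.2% at Plagl1 (6). It was 73.1% at Impact (14), 63.4% at Nnat (25), 62.3% at Snrpn (11) and 51.5% at Mest (7), beside 43.9% over all such cytosines. At the 2 cytosines of Peg3 it was 78.1%, and Peg10 and Sgce had none in the bin. Every member with a value was thus above the share over all such cytosines, Mest, whose cytosines here lay mostly in the intron, by the least. The share also depends on control replicate 3, where the members were at 46.0% and the other cytosines at 57.3%. That replicate read 24.5% at Kcnq1ot1 and 36.8% at Grb10. Control replicate 2, which chose the cytosines, read 39.1% and 50.2% there. Member cytosines above the bin in control replicate 2 (38) left 60.4% of control replicate 3, beside 45.5% for all 232695 above it. The cKO means of these 2 sets were nearly equal, 37.6% and 38.5%. The larger share of the members therefore comes from their lower level in control replicate 3, 62.3% against 84.8%.

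**Figure D4:**
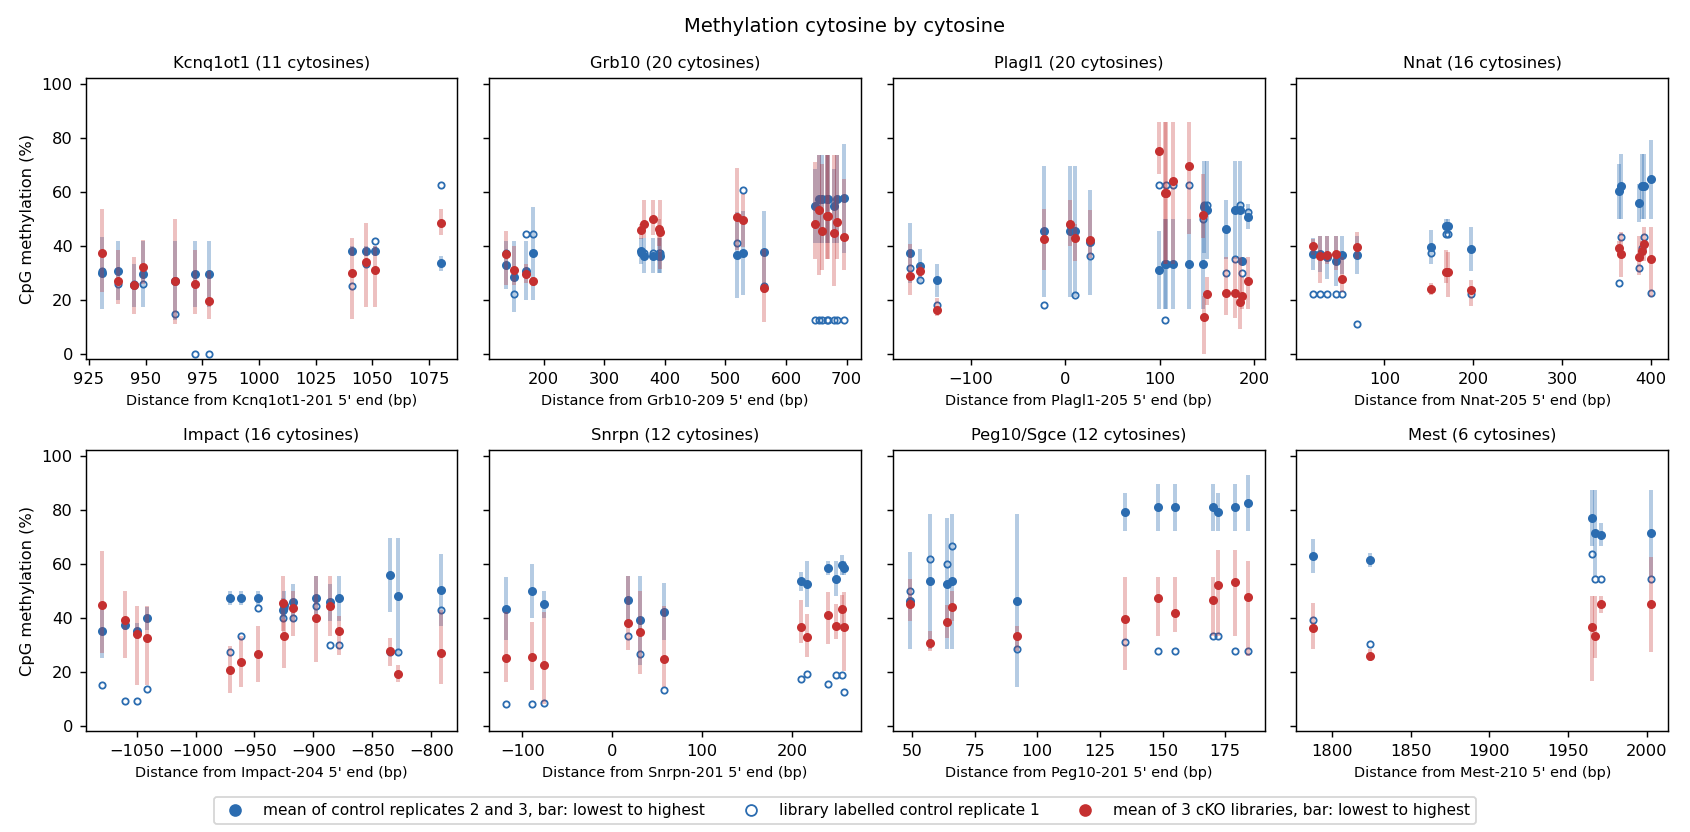
Methylation in percent (vertical axis) of each covered cytosine against its distance from the named transcript start in bp (horizontal axis) at 8 stretches. Filled blue points are the mean of control replicates 2 and 3 and red points that of the 3 cKO libraries, with bars from the lowest to the highest library, and open points are the library labelled control replicate 1. All cKO libraries lie below both controls at 0 of 11 Kcnq1ot1 and 0 of 20 Grb10 cytosines. They do so at 7 of 12 at Snrpn, 7 of 12 at Peg10/Sgce and 5 of 6 in the Mest intron. By means, the red points lie below the blue ones throughout Snrpn, Peg10/Sgce and the Mest intron, and on either side at Kcnq1ot1 and Grb10.

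Averaged over the 170 cytosines at gene 5' ends, each weighted equally, the members were at 11.9%, 19.9% and 21.6% in control replicates 1, 2 and 3 and at 15.4%, 13.6% and 14.2% in cKO replicates (difference -3.37 points, two-sided exact permutation p = 0.4, smallest possible 0.1). The many unmethylated cytosines of Grb10 weigh on this mean. Divided by the mean of all covered cytosines of the same library, it was 0.761, 0.505 and 0.554 in controls and 0.784, 0.702 and 0.899 in cKO (exact permutation p = 0.2). With any transcript 5' end (267 cytosines) the ratio was 1.27, 0.793 and 0.817 in controls and 1.13, 1.24 and 1.38 in cKO (exact permutation p = 0.3). In both versions every cKO library was above control replicates 2 and 3, and the library labelled control replicate 1 lay with the cKO libraries.

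The hexamer TGCCGC, searched on both strands, occurred 8 times within 3000 bp of the gene 5' ends of Peg3 and Nnat, 5 times at Grb10, 3 times at Peg10, Sgce and Kcnq1ot1, once at Impact and not at the gene 5' ends of Mest, Snrpn or Plagl1. At least 1 copy was present in 53.7% of all 32093 gene 5' ends, with a median of 1. Of the 267 member cytosines, 10 lay inside a TGCCGC. They were at 22.4%, 39.4% and 37.6% in controls and 29.8%, 23.9% and 20.997% in cKO replicates, and the other 257 at 19.8%, 30.9% and 31.6% in controls and 21.8%, 23.9% and 21.8% in cKO. The Snrpn and Plagl1 sequences above hold 1 of these hexamers each and the Kcnq1ot1 sequence holds 0. The part of the Snrpn stretch left out above holds 2.

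Other imprinted genes were read in the same fit. Of 17 genes of maternally methylated regions elsewhere, all measured, 0 were called with all 6 libraries and 1 was lower without the library labelled control replicate 1. Of 25 measured neighbours of the members 1 was lower, and of 6 measured genes of paternally methylated regions 1 was lower, none with all 6 libraries, where 1 neighbour, 2 maternal and 1 paternal genes had an unadjusted p under 0.05. Over all gene 5' ends these shares were 13.3% lower without that library and 8.97% at the unadjusted p with all 6. A gene can be called lower only from a control mean of at least 25%. Without that library 10 of the maternal genes, 6 of the neighbours and 3 of the paternal genes had such a mean. Snurf, counted among the neighbours, has the same 12 cytosines as the member Snrpn. The 3 called were H19 (86.2% in control replicates 2 and 3 to 38.3% in cKO, q = 0.000519), Fkbp6 (82.4% to 48.9%, q = 0.000667) and Slc22a18 (66.4% to 27.9%, q = 0.00167). Among the 9 maternally methylated genes elsewhere at 30% to 70% in control replicates 2 and 3 the median share left was 71.4%. It was highest at Airn, the antisense RNA of the Igf2r locus (46.5% to 43.3%), and lowest at Slc38a4 (54.2% to 22.97%), both chosen after their values were seen. Zim3 and Fkbp6 had the highest control means (70.1% and 72.0% over 3 controls) and Trappc9 and Copg2 the lowest (0.231% and 0.280%). Of 6 measured imprint maintenance factors, 0 were called with all 6 libraries and 2 were lower without the library labelled control replicate 1, Dnmt1 (73.4% to 35.4%) and Dppa3 (64.1% to 33.1%), named after their values were seen, again beside 13.3% of all 5' ends.

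By Euclidean distance over the 6 libraries, and among 5' ends with at least 20 cytosines, those most like the median of the 6 measured members were at Zrsr1, an imprinted splicing factor copy within Commd1 (52 cytosines, distance 9.95 points), Gm10775 (24 cytosines, 11.1 points) and Gm26796 (107 cytosines, 13.4 points). Zrsr1 was at 32.2%, 49.4% and 35.4% in control replicates 1, 2 and 3 and at 39.6%, 35.7% and 32.6% in cKO replicates. The median of the members took in both Peg10 and Sgce, which share their cytosines.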

How the data were processed

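The study's authors digested cortical DNA with MspI, oxidised and bisulfite-converted it, and aligned reads to GRCm38 with Genomatix software, accepting perfect matches only. The submitters' processing notes name methylKit. Each deposited file holds 1 library and lists, for every cytosine, its coverage (a count of reads) and its percent of C and of T, which the authors neither normalised between libraries nor pooled. The lowest coverage was 6 reads. Methylated reads were recovered as coverage times percent.

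Reads were summed over cytosines covered in all 6 libraries within 3000 bp of the 5' end of each protein-coding or long non-coding gene (GENCODE M21) and compared between groups by a quasi-binomial F test whose dispersion was moderated with limma 3.58.1 in R 4.3.3, with Benjamini-Hochberg adjustment. Library means were compared with exact permutation tests (scipy 1.17.1). Replicates carry no litter or batch in the labels, so the p-values reflect only how these libraries vary. The members and gene lists were chosen with earlier results of these data known, and further stretches and fits were added afterwards. All 10 members are named, and of other imprinted genes those called and the extremes of control level. Alternatives comprised coverage, window, transcript starts, test, thresholds, replicate block and the omission of each library. The sequence of the Nnat stretches is not reported here.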

Additional observations from a re-analysis of the deposited data

How the results depend on the processing

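Calls were 0 at the members and over all 5' ends with coverage minima of 10 and 20 reads, windows of 1000 and 500 bp, transcript 5' ends, the replicate block, limma on percent levels, both other thresholds and autosomes alone. The plain binomial test called 1821 5' ends and 0 members. Omitting 1 library gave 0 to 2385 calls over all 5' ends and 0 to 2 at the members, and only the library labelled control replicate 1 gave any. Without it, 2578 5' ends and 2 members were called on autosomes alone, and 3597 and 4 with transcript 5' ends. Both of these were chosen after seeing the data. The median of the member differences was -5.03 points, and -10.1 to -3.22 points over the omissions. Peg10 and Sgce, which share their cytosines, both enter this median, so their locus weighs more in it than any other. The mean over member cytosines differed by -6.32 to -1.48 points and the relative level by 0.136 to 0.265 over the omissions. With the replicate block the mean kept its difference of -3.37 points (exact sign-flip permutation p = 0.5, smallest possible 0.25). Correlations of same-numbered deviations were -0.21, 0.06 and -0.27, and those of differently numbered ones lay between -0.27 and 0.33. With 3 libraries a group, these values cannot decide whether the numbers pair the libraries.

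The ratio at intermediate cytosines differed by -0.0946 to 0.600 over the omissions, and without control replicate 3, which leaves the library labelled control replicate 1 as the only control, it reversed to -0.0946. Of the members, Kcnq1ot1 changed sign to 0.43 points at 20 reads, 2.66 at 1000 bp, 3.99 without control replicate 2 and 0.73 without cKO replicate 2 (-4.29 to 3.99 over the omissions), Grb10 to 0.56 with transcript 5' ends, and Plagl1 to 0.24 with equal weights and 0.56 without control replicate 3 (-2.86 to 0.56 over the omissions). Over the omissions Nnat lay between -15.99 and -2.18 points and Peg10 and Sgce between -32.8 and -13.2 points, without a change of sign. No member that changed sign was past the threshold. The depth of 10 to 30 reads at the flanking cytosines limits them to large differences.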
